A study of Mus musculus with 14 samples.

Results

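The cytosolic ribosomal protein genes are the genes whose protein products, together with 4 ribosomal RNAs, build the ribosome that translates nuclear messages. They were taken by name: rows starting Rpl or Rps with a digit, plus Rplp0, Rplp1, Rplp2 and Rpsa, leaving out the 10 kinase names starting Rps6k and 6 pseudogene names. This gave 87 of the 24015 rows. By product they are 31 small subunit proteins, 43 large subunit proteins, the 3 proteins of the P stalk, 9 paralogs of a core protein and Rps19bp1, which binds a ribosomal protein and is not one itself. The name rule used no measured value. For 85 members there were enough counts to be tested. Rps27rt had 0 counts in every library, and Rpl26 had between 0 and 19 counts per library.

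The 14 libraries are RNA-seq of mouse pluripotent cells in 7 groups of 2, which the submitters call biological duplicates. Embryonic stem cells (ESC), the naive state, grew with leukemia inhibitory factor (LIF) on feeder cells, and epiblast stem cells (EpiSC), the primed state, grew with bFGF. EpiSCs moved to LIF with MM401 at 100 µM were collected at day 3 and at day 6, which is passage 2. MM401 blocks Mll1, an enzyme that methylates histone H3. These 4 groups carry the genotype label CD1/JF1. Reverted lines (rES) were kept in LIF with 25 µM MM401 and collected at passage 6 and passage 30, with a further passage 30 group kept without MM401, and all 3 carry the label CD1-deltaTSIX/JF1. How many lines or clones stand behind each group, and how long MM401 had been absent, the labels do not say. EpiSC and every other group differ in growth factor as well as in state, and rES libraries differ from the rest in genotype label, so these cannot be told apart. In bulk RNA, fewer cells of a type and less RNA per cell cannot be told apart either.

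Ribosomal proteins are made in near-equal numbers, one copy per ribosome for most of them, and their messages carry a 5' oligopyrimidine tract through which the mTOR pathway sets their translation. Their genes are transcribed in every cell, and the amount of ribosome made follows growth. Several core proteins have a second gene, often an autosomal copy of an X-linked gene, and the germ line uses some of these copies while the X chromosome is silent. Naive and primed pluripotent cells of the mouse differ in growth factor demand, X chromosome state and metabolism.

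Totals ran from 20831588 to 23677089 counts per library, except for MM401 day 3 (113221270 and 116086115) and MM401 passage 2 (74952496 and 80383376). The labelled states were checked on markers. All 8 naive markers (Zfp42, Klf4, Tfcp2l1, Esrrb, Nr0b1, Tbx3, Tcl1 and Prdm14) were higher in ESC, in both MM401 time points and in both rES passages than in EpiSC. From day 3 to passage 2 all 8 were lower, with a median log2 fold change of -0.69. The core pluripotency factors Pou5f1, Sox2 and Nanog were lower there too. Against EpiSC, Sox2 and Nanog were higher at passage 2 and Pou5f1 was lower (log2 fold change -0.65). Of 6 primed markers, Dnmt3b, Sox11 and Grb10 were lower in ESC than in EpiSC, Lef1 did not pass, and Fgf5 and Otx2 were higher, against their usual assignment. Of 22 fibroblast markers such as Col1a1 and Postn, none was at 0 in any library. Col1a1 had 839.4 and 850.5 CPM (counts scaled by TMM to a common library size) in EpiSC, whose labels name no feeder cells. The markers' summed level was 6608 and 6685 CPM in EpiSC, 7503 and 7513 at MM401 day 3 and 22314 and 21880 at MM401 passage 2. It was 7531 and 7525 in ESC and 2067 to 4912 in the 6 rES libraries. The passage 2 libraries thus had the highest fibroblast marker level, and the part of this in the passage 2 results was not tested.

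In ESC and at both MM401 time points the 4 members furthest from EpiSC were paralogs, and their sequences decide how well reads can be assigned to them. Rpl39l is an autosomal copy of X-linked Rpl39, which lines the exit tunnel of the large subunit. Their coding sequences are both 156 bases long and differ at 23 of them, an identity of 85.3%. The 2 sequences, 5′ to 3′ from the GENCODE M21 transcripts, have differing bases in capitals.
Rpl39: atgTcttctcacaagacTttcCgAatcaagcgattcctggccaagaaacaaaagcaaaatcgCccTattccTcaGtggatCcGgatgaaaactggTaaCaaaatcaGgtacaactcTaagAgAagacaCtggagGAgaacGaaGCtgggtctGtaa
Rpl39l: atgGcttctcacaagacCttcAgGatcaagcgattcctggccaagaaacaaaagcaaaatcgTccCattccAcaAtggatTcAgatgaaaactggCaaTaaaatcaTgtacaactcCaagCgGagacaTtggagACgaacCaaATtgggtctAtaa
The longest run shared by the 2 transcripts is 38 bases. Rpl10l is an autosomal, intronless copy of X-linked Rpl10, which sits near the peptidyl transferase centre, and Rpl10l is known for replacing Rpl10 in male germ cells. Over 645 coding bases they differ at 98, an identity of 84.8%. The first 156 coding bases hold 26 of the differences, again in capitals.
Rpl10: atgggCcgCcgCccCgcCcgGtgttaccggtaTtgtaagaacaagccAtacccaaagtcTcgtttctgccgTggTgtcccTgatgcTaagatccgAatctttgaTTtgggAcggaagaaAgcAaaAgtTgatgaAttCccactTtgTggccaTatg
Rpl10l: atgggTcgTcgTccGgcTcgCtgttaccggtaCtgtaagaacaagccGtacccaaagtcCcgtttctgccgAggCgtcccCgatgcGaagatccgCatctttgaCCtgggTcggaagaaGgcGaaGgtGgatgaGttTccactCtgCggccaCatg
The differences are spread along the sequence, and the longest shared run between these transcripts is 23 bases. Rps4l shares at most 38 bases in a row with X-linked Rps4x, and Rpl3l, the striated muscle paralog of Rpl3, shares at most 22 with Rpl3. None of these 4 paralogs has a 50-base stretch in common with its partner. Of all 50-base stretches in their transcripts, 92.4% of those of Rpl10l, 85.1% of Rps4l and 100% of Rpl39l and Rpl3l occur in no other annotated gene. The partners are less distinct, because processed pseudogenes copy them: 26.3% for Rpl10, 27.8% for Rps4x, 32.9% for Rpl3 and 83.5% for Rpl39. The handling of reads with several matches was not given in the sources used here, so the levels of members with few distinct stretches are uncertain.

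Promoters of Rpl10l, Rpl39l and Rpl3l and of the X-linked partners Rpl10 and Rpl39 are shown because paralogs and partners moved by different amounts between groups. The promoter table has no entry for Rps4l, so that pair is not shown. These are the 100 bases before the RefSeq start site (GRCm38.p6), 5′ to 3′ on the gene's strand, with CG dinucleotides in capitals. Rpl10l lies at chr12:66284402-66284501 on the minus strand, Rpl3l at chr17:24727726-24727825 on the plus strand and Rpl39l at chr16:10170128-10170227 on the plus strand. The X-linked partners lie at chrX:74270716-74270815 on the plus strand for Rpl10 and chrX:37085223-37085322 on the minus strand for Rpl39.
Rpl10l: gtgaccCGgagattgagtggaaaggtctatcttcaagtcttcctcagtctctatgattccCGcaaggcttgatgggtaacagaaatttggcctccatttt
Rpl10: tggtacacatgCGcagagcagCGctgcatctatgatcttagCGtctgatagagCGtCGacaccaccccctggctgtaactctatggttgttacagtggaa
Rpl39l: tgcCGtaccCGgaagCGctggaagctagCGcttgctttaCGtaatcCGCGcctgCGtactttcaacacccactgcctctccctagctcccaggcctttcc
Rpl39: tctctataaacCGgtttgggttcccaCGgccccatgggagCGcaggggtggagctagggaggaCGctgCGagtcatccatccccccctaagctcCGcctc
Rpl3l: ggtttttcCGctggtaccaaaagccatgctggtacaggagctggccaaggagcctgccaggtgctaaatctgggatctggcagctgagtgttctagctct
The printed bases hold 2 CG for Rpl10l, 1 for Rpl3l and 8 for Rpl39l, against 5 for Rpl10 and 6 for Rpl39. In the full window of 300 bases, from 250 before to 50 after the start, Rpl10l had 13, Rpl3l 2 and Rpl39l, Rpl10 and Rpl39 17 each. Rpl3l has another window, chr17:24732435-24732734 on the plus strand, with 3 CG, whose bases are not shown. Windows were found for 66 of the 87 members, 78 windows in all, with a median of 21 CG against 7 over 32851 windows of all genes. CCGGAAG, the core of an ETS site, occurred on either strand in 27 member windows (34.6%) and in 8.9% of all windows. TATAAA, the core of a TATA box, occurred on either strand in 7 member windows (9.0%) against 13.6% of all windows. The windows of all genes cover 27025 genes, where 16247 had enough counts to be tested, so they include genes with few or no counts. A match describes the letters only.

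For Rps4l the EpiSC libraries stood apart from the other 12. It had 57.8 and 58.3 CPM in EpiSC, 492.4 and 485.9 in ESC, 574.7 and 558.3 at MM401 day 3, and 325.9 and 345.0 at MM401 passage 2. The rES libraries had 371.0 and 351.4 at passage 6, 385.1 and 330.4 at passage 30, and 400.1 and 414.8 at passage 30 without MM401. Rps4l was thus 8.43-fold higher in ESC than in EpiSC (log2 fold change 3.08 ± 0.06 SE, edgeR adjusted p = 2.6e-26) and 9.76-fold higher at day 3 (3.29 ± 0.05, edgeR adjusted p = 3.71e-27). Passage 30 of the reverted line was 6.17-fold above EpiSC and below ESC (-0.45 ± 0.05, edgeR adjusted p = 3.64e-09).

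Rpl10l, too, was lowest in EpiSC. Its CPM were 11.5 and 10.2 in EpiSC, 121.6 and 129.7 in ESC, 126.4 and 122.7 at day 3, 66.6 and 69.2 at passage 2, 52.2 and 47.0 at rES passage 6, 59.1 and 52.4 at passage 30, and 52.4 and 50.5 without MM401. The 2 EpiSC libraries lay below all others, and the ESC and day 3 libraries lay above all others. Rpl10l was 11.6-fold higher in ESC than in EpiSC (log2 3.54 ± 0.07, edgeR adjusted p = 6.29e-34). Passage 30 rES was 5.15-fold above EpiSC (2.37 ± 0.08, edgeR adjusted p = 4.7e-27) and below ESC (-1.17 ± 0.06, edgeR adjusted p = 6.86e-21).

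Rpl39l had 6.2 and 5.78 CPM in EpiSC, 36.2 and 38.1 in ESC, 37.4 and 38.3 at day 3, 41.4 and 43.5 at passage 2, 22.3 and 18.7 at rES passage 6, 23.8 and 24.1 at passage 30, and 28.4 and 26.5 without MM401. EpiSC was lowest, the reverted lines were intermediate, and ESC and the MM401 time points were highest. The change against EpiSC was 2.63 ± 0.09 on the log2 scale in ESC (edgeR adjusted p = 1.42e-25) and 2.0 ± 0.1 in rES passage 30 (edgeR adjusted p = 7.65e-21). Rpl3l was close to absent in EpiSC, with 6 and 4 counts (0.245 and 0.165 CPM), and had 47 and 54 counts in ESC (2.12 and 2.61 CPM). It reached 3.97 to 7.02 CPM in the 6 rES libraries, above every other library. Against EpiSC it was higher by 3.51 ± 0.39 in ESC (edgeR adjusted p = 1.44e-10) and by 4.71 ± 0.33 in rES passage 30 (edgeR adjusted p = 4.12e-16), and the few EpiSC counts limit both values.

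**Figure D1:**
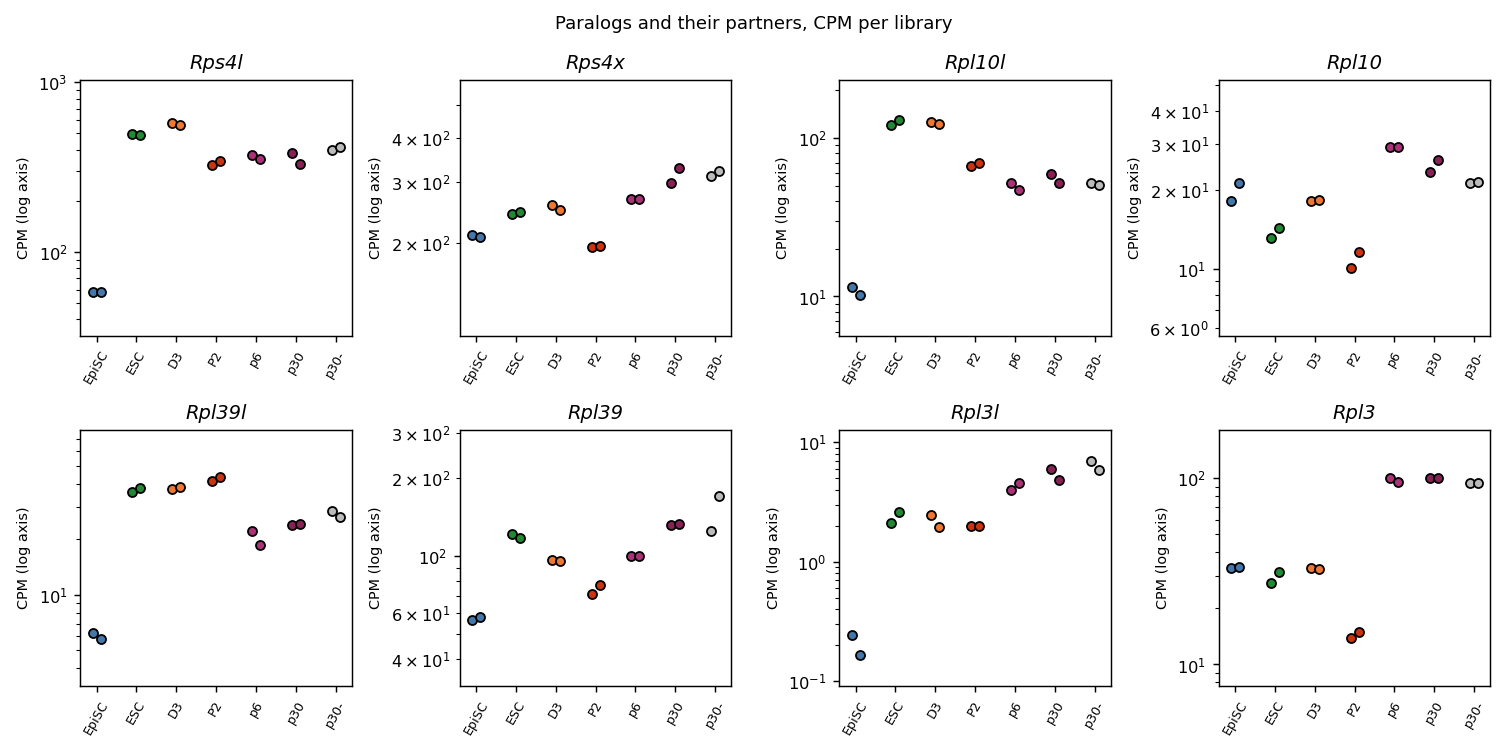
Level of 4 paralogs and their partners in every library, in TMM-scaled CPM on a log axis, with groups along the x axis (D3 and P2, MM401 day 3 and passage 2; p6 and p30, rES passages; p30-, passage 30 without MM401) and 1 point per library. Rps4l, Rpl10l, Rpl39l and Rpl3l are lowest in the 2 EpiSC libraries, at 57.8 to 58.3, 10.2 to 11.5, 5.78 to 6.2 and 0.165 to 0.245 CPM.

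In ESC against EpiSC the partners moved less than their paralogs, though Rps4x and Rpl39 moved in the same direction. X-linked Rps4x stayed between 194.5 and 327.9 CPM, was 0.22 ± 0.04 higher in ESC than in EpiSC on the log2 scale (edgeR adjusted p = 5.64e-06), and was lowest at MM401 passage 2. Rpl10 was lower in ESC than in EpiSC, with 13.2 and 14.3 against 18.1 and 21.2 CPM (-0.52 ± 0.1, edgeR adjusted p = 1.24e-05). Rpl39 was higher, with 121.7 and 117.3 against 56.4 and 57.8 CPM (1.07 ± 0.13, edgeR adjusted p = 8.06e-05). Of all 608 X-linked genes tested, 29.9% were higher and 47.0% lower in ESC than in EpiSC, with a median of -0.23. Over all genes tested, the shares were 37.0% and 37.5%. Per kilobase of transcript, the level of Rps4l over that of Rps4x was 0.309 and 0.315 in EpiSC, 2.3 and 2.23 in ESC, 2.51 and 2.53 at day 3, 1.89 and 1.99 at passage 2 and 1.13 to 1.57 in the 6 rES libraries. The same ratio of Rpl10l over Rpl10 was 0.449 and 0.339 in EpiSC, 6.54 and 6.41 in ESC, and 1.14 to 1.78 in rES. Divided by the length of distinct stretches only, a choice made after the values were seen, Rps4l over Rps4x was 0.101 and 0.103 in EpiSC, 0.751 and 0.728 in ESC and 0.369 to 0.513 in rES, below 1 in all libraries. On that scale Rpl10l over Rpl10 was 0.128 and 0.0965 in EpiSC, 1.86 and 1.82 in ESC and 0.324 to 0.507 in rES. Both ratios were lowest in EpiSC. The scale of distinct stretches multiplies all ratios of a pair by the same factor and recounts no reads. The order of libraries is therefore the same on it by construction. Which copy of a pair is the more abundant depends on how shared reads were counted. Rpl39l over Rpl39 stayed below 1 in all libraries, at 0.0994 and 0.0903 in EpiSC, 0.269 and 0.293 in ESC and up to 0.527 at passage 2. Rpl3l over Rpl3 never passed 0.115.

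The other paralogs changed less. Rpl22l1, the paralog that Rpl22 is known to repress, had 40.4 and 39.7 CPM in EpiSC, 34.3 and 32.5 in ESC, 18.0 and 17.6 at day 3 and 15.1 and 15.2 at passage 2, against 37.8 to 50.1 in rES. It was lowest in the 4 MM401 time course libraries, at -1.17 ± 0.06 for day 3 against EpiSC (edgeR adjusted p = 6.48e-20). Its smaller fall in ESC, -0.26, turned to 0.07 with an offset for transcript length and GC content. Rps27l, a p53 target gene, was highest at day 3, with 199.7 and 190.8 CPM against 156.4 and 153.6 in EpiSC (0.33 ± 0.04, edgeR adjusted p = 1.63e-09). Rpl36al and Rpl7l1 stayed within 31.6 to 49.0 and 138.7 to 247.0 CPM.

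ESC against EpiSC asks how the naive and primed states differ. Of 85 members tested, 60 were higher and 8 lower in ESC at an edgeR adjusted p under 0.05, where 37.0% of all 16247 genes tested were higher and 37.5% lower. The median log2 fold change of the members was 0.48, against 0.00 over all genes. Among genes of at least 100 CPM, a level chosen after the values were seen, 31 of 35 members were higher and 2 lower (median 0.61), against 51.7% and 36.5% of all genes at that level (median 0.12). Small subunit genes were 27 higher and 0 lower of 31 (median 0.53), large subunit genes 24 higher and 5 lower of 42 (median 0.33), and all 3 P stalk genes, whose products recruit the translation factors, were higher. The members held 1.47% and 1.483% of all counts in EpiSC and 2.122% and 2.125% in ESC, the highest of the 7 groups. With 2 libraries per group, the smallest exact two-sided p for such a share is 0.333, so it was not tested.

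Rpl8, Rps3 and Rpl4, which had high levels per kilobase in EpiSC and were named after their values were seen, were higher in ESC. Rpl8, a large subunit protein, had 1545.3 and 1570.5 CPM in EpiSC and 2575.5 and 2556.7 in ESC. Rps3 had 1303.2 and 1328.7 against 2331.0 and 2326.4, and Rpl4 had 1538.3 and 1558.6 against 2560.7 and 2571.0. No EpiSC library reached an ESC library for these 3 genes, and their log2 fold changes were 0.72, 0.82 and 0.73, each ± 0.03 or 0.04. Each has at least 83.5% of 50-base stretches of its own. In the P stalk, Rplp1 had 468.5 and 493.6 CPM in EpiSC and 740.6 and 727.3 in ESC (0.61 ± 0.05, edgeR adjusted p = 6.24e-09), and Rplp0 had 655.4 and 671.0 against 766.7 and 771.4 (0.21 ± 0.03, edgeR adjusted p = 7.55e-07). The call of Rplp0 was lost when scaled to total counts (0.06) and with the length and GC offset (0.06). Rplp2 had 101.4 and 103.9 against 174.7 and 179.8 (0.79 ± 0.05, edgeR adjusted p = 1.94e-18). Rpsa, a small subunit protein that also serves as a laminin receptor, had 10.0 and 11 against 16.4 and 16.3 (0.64 ± 0.12, edgeR adjusted p = 1.8e-05).

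Among members of at least 10 CPM the largest rises beside the paralogs included Rps18, a protein of the small subunit head, with 4.73 and 5.08 CPM in EpiSC and 15.5 and 15.6 in ESC (1.66 ± 0.12, edgeR adjusted p = 6.7e-16). Rpl13a, which also hosts small nucleolar RNAs, had 496.6 and 484.3 against 997.6 and 976.2 (1.01 ± 0.04, edgeR adjusted p = 1.53e-24). The largest falls were small. Rpl27 had 13.8 and 13.1 CPM in EpiSC and 9.58 and 7.88 in ESC (-0.62 ± 0.14, edgeR adjusted p = 0.000107), and Rpl15 had 87.6 and 88.6 against 63.9 and 59.0 (-0.52 ± 0.05, edgeR adjusted p = 5.13e-11). Of the proteins with a second known role, Rps6, the substrate of S6 kinase, and Rps19, which is often mutated in Diamond-Blackfan anaemia, were higher, by 0.48 ± 0.11 and 0.55 ± 0.1 (edgeR adjusted p = 0.000234 and 0.000125). Rpl5, which binds Mdm2 with Rpl11 and 5S RNA, differed by 0.13 ± 0.14 and did not pass (edgeR adjusted p = 0.433). Rpl38 had 34.8 and 19.7 CPM in EpiSC and 17.4 and 32.0 in ESC, a spread within each group wider than the difference.

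**Figure D2:**
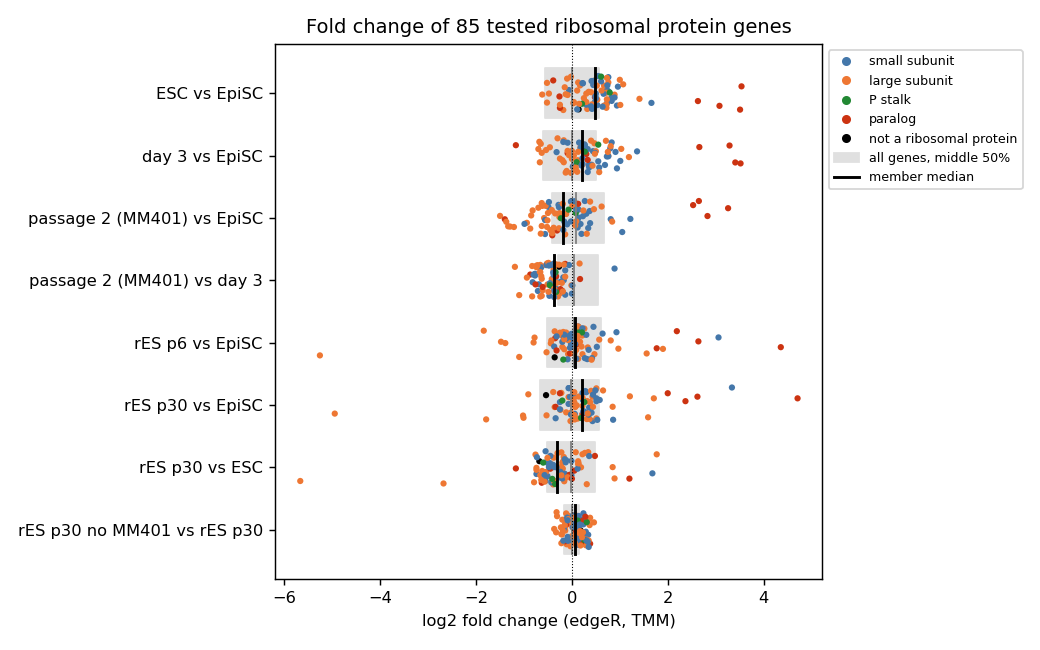
Log2 fold change (edgeR, TMM scaling) of the 85 tested members in 8 comparisons, 1 point per gene coloured by role, with the members' median as a black line and the middle 50% of all 16247 genes as a grey box. The members' median lies at 0.48 for ESC against EpiSC and at -0.38 for MM401 passage 2 against day 3, and 4 paralogs stand to the right of the other members for ESC, day 3 and passage 2 against EpiSC.

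MM401 with LIF against EpiSC asks what the inhibitor and the change of medium did together over time. No group had LIF without MM401 at these times, so inhibitor and medium cannot be told apart. The day 3 and passage 2 libraries were also the deepest, so depth and group cannot be told apart in comparisons with EpiSC. At day 3, 49 members were higher and 13 lower than in EpiSC, where 38.7% of all genes were higher and 37.9% lower, and the members' median was 0.22 against 0.00. Genes of at least 100 CPM leaned the same way, with 58.9% higher, 29.2% lower and a median of 0.21, near the members at that level (26 higher and 4 lower of 35, median 0.25). Small subunit genes were 23 higher and 2 lower of 31, large subunit genes 16 higher and 10 lower of 42. Scaled to total counts the split became 35 higher and 23 lower, with a median of 0.05. The comparisons with EpiSC share its 2 libraries and are not independent of each other.

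Rps7, a small subunit protein that binds Mdm2, had the largest rise outside the paralogs at day 3, with 173.9 and 181.7 CPM against 70.0 and 68.3 in EpiSC (1.36 ± 0.06, edgeR adjusted p = 4.52e-15). In ESC it had 114.5 and 114.8, so that the day 3 libraries lay above those of both reference states. Rps27a, which is made as a fusion with ubiquitin, had 27.0 and 27.7 CPM at day 3 and 12.9 to 16.8 in all other libraries (0.91 ± 0.09 against EpiSC, edgeR adjusted p = 2.71e-12). Of their 50-base stretches, 50.5% are distinct for Rps7 and 37.6% for Rps27a. Rpl29 and Rpl37a, both large subunit proteins, fell at day 3, by 0.67 and 0.65 on the log2 scale (edgeR adjusted p = 4.35e-10 and 2.05e-09), and both were higher in ESC than in EpiSC.

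From day 3 to passage 2 most members went down. Of 85 members, 71 were lower and 2 higher at passage 2, where 33.3% of all genes were lower and 37.5% higher, and the members' median was -0.38 against 0.04. Lower members were 24 of 31 small subunit genes, 37 of 42 large subunit genes, all 3 P stalk genes and 6 of 8 tested paralogs. Genes with high counts went down more often in general: among genes of at least 100 CPM, 57.7% were lower, against 32 of 35 members at that level. The members' share of counts was 1.648% and 1.634% at day 3 and 1.248% and 1.315% at passage 2, the lowest of the 7 groups. The 22 fibroblast markers were all higher at passage 2 than at day 3, with a median of 1.55. All 8 naive markers were lower, with a median of -0.69. The part of either in the members' fall was not tested.

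Rpl3, which contacts the peptidyl transferase centre, had the largest fall, from 32.8 and 32.7 CPM at day 3 to 13.8 and 15.0 at passage 2 (-1.19 ± 0.06, edgeR adjusted p = 1.72e-21). Rps6 went from 15.4 and 15.7 to 8.06 and 9.54 (-0.82 ± 0.09, edgeR adjusted p = 2.5e-10), and Rpl11 from 8.85 and 9.4 to 4.69 and 4.84 (-0.94 ± 0.1, edgeR adjusted p = 2.12e-10). Rps4l and Rpl10l fell too, by 0.76 and 0.87 on the log2 scale, and their passage 2 libraries still lay above both EpiSC libraries. The 2 members called higher were Rps27, at 3.83 and 3.37 against 1.92 and 1.95 CPM (0.89 ± 0.17, edgeR adjusted p = 1.1e-05), and Rpl39l (0.17 ± 0.06, edgeR adjusted p = 0.011). The call of Rpl39l was lost without day 3 replicate 1 (0.15) and without passage 2 replicate 2 (0.13). Rps19 did not pass, with 87.9 and 90.3 CPM at day 3 and 86.4 and 92.8 at passage 2 (0.01 ± 0.08, edgeR adjusted p = 0.932).

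Against EpiSC, passage 2 had 22 members higher and 43 lower, where 42.1% of all genes were higher and 33.8% lower, with a members' median of -0.18 against 0.08. All 22 fibroblast markers were higher here as well, with a median of 1.61, and the part of this was not tested. Large subunit genes were 6 higher and 27 lower of 42, and small subunit genes 11 higher and 12 lower of 31. Scaled to total counts, 13 were higher and 49 lower with a median of -0.32, and with the length and GC offset 15 and 49 with a median of -0.29. Rpl27 had 4.25 and 5.2 CPM against 13.8 and 13.1 in EpiSC (-1.5 ± 0.13, edgeR adjusted p = 1.02e-13), and Rpl19 4.58 and 5.18 against 11.4 and 12.6 (-1.29 ± 0.11, edgeR adjusted p = 2.98e-13). Rps7 was still higher, at 141.1 and 144.4 CPM (1.05 ± 0.06, edgeR adjusted p = 7.93e-13).

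**Figure D3:**
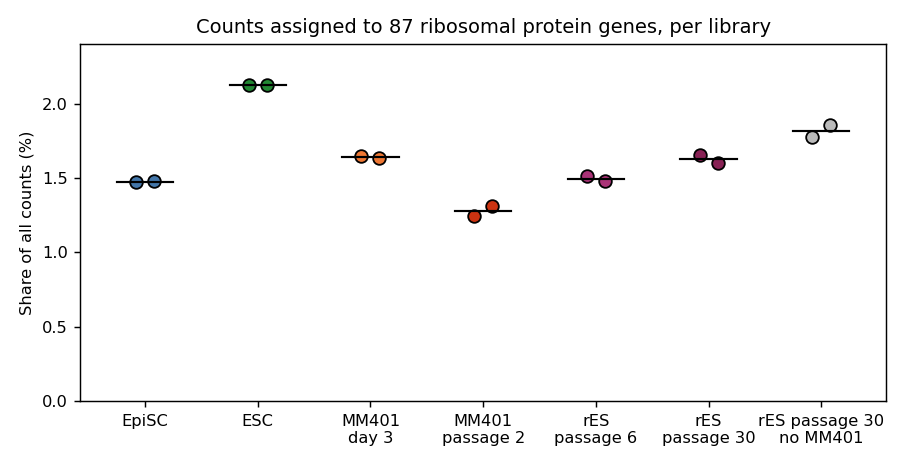
Share of all counts assigned to the 87 members, in percent, in each of the 14 libraries, with a bar at the mean of each group of 2 and the y axis from 0. ESC lies highest, at 2.122% and 2.125%, and MM401 passage 2 lowest, at 1.248% and 1.315%.

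The members' share of counts in the reverted lines was below that of ESC, with 1.513% and 1.477% at passage 6, where it overlapped EpiSC, 1.656% and 1.6% at passage 30 and 1.778% and 1.855% at passage 30 without MM401. Against EpiSC, passage 6 had 28 members higher and 20 lower (background 38.7% and 35.1%), with a median of 0.07 against 0.04 over all genes, so that fewer members than genes in general were called in either direction (32.9% and 23.5%). Scaled to total counts this median was -0.05, with 21 higher and 30 lower, and with the length and GC offset it was -0.03, with 22 higher and 30 lower. Passage 30 against EpiSC had 41 higher and 12 lower (background 38.0% and 38.3%), with a median of 0.22 against -0.02, and 26 higher and 24 lower with a median of 0.07 when scaled to total counts. Of the 35 members of at least 100 CPM, 23 were higher and 3 lower (median 0.26), against 52.1% and 34.5% of all genes at that level (median 0.13). Passage 30 against ESC, which asks how far the reverted line matched embryonic stem cells, had 10 higher and 47 lower (background 35.3% and 35.8%), with a median of -0.32 against -0.01. Lower there were 21 of 31 small subunit genes, 19 of 42 large subunit genes and all 3 P stalk genes. Of the 22 fibroblast markers, 21 were lower at passage 30 than in EpiSC and 21 lower than in ESC, and their part was not tested. Rpl13a had 599.7 and 544.3 CPM at passage 30 against 997.6 and 976.2 in ESC (-0.79 ± 0.04, edgeR adjusted p = 8.01e-21).

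A few members set the 6 rES libraries apart from the other 8, a split looked at after the values were seen. The 6 rES libraries did not overlap the other 8 for 9 members, 6 higher and 3 lower, where 12.4% and 8.64% of all genes did so. Members thus set this line apart no more often than other genes, but a few did so by large amounts. Rps18 had 42.4 and 39.2 CPM at passage 6, 50.2 and 49.0 at passage 30 and 50.5 and 57.3 without MM401, against 4.73 to 15.6 elsewhere. Rpl3 had 101.0 and 95.5, 100.1 and 100.2, and 94.6 and 94.6 CPM in the same groups, against 13.8 to 33.5 elsewhere. Rpl14 had 141.7 to 184.8 CPM against 44.6 to 120.4. In the fit, passage 30 was above ESC by 1.68 ± 0.09 for Rps18 and 1.77 ± 0.06 for Rpl3 (edgeR adjusted p = 3.51e-20 and 7.09e-26).

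Rpl29 went the other way, with 0.91 and 0.823 CPM at passage 6, 1.11 and 1.02 at passage 30 and 0.508 and 1.16 without MM401, against 12.8 to 56.4 in the other 8 libraries. That is 11 to 26 counts per rES library against 791 to 2313 elsewhere. Between passage 30 and ESC the log2 fold change of Rpl29 was -5.67 ± 0.14 (edgeR adjusted p = 8.69e-31). Rpl35a had 6.15 to 7.15 CPM in rES against 17.2 to 44.7 elsewhere (-2.68 ± 0.11 against ESC, edgeR adjusted p = 7.83e-24), and Rps19bp1 27.7 to 33.1 against 39.7 to 49.4. On withdrawal of MM401 none of Rps18, Rpl3, Rpl14, Rpl29, Rpl35a and Rps19bp1 passed the test, with log2 fold changes of 0.12, -0.08, 0.17, -0.37, 0.01 and 0.18. Rpl14 passed in 5 alternatives, at 0.17 to 0.18 in 4 of them, total and thinned counts among these, and at 0.32 without replicate 1 of the group lacking MM401. Rps19bp1 passed in 3, at 0.18 without the deep MM401 libraries, 0.19 with total counts and 0.24 without that same replicate. The genotype label differs between these 6 libraries and the rest. Of their 50-base stretches, 20.6% are distinct for Rps18, 32.9% for Rpl3, 50.7% for Rpl14, 64.5% for Rpl29 and 71.1% for Rpl35a, and each shares stretches with at least 1 pseudogene. Rps19bp1 shares none.

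**Figure D4:**
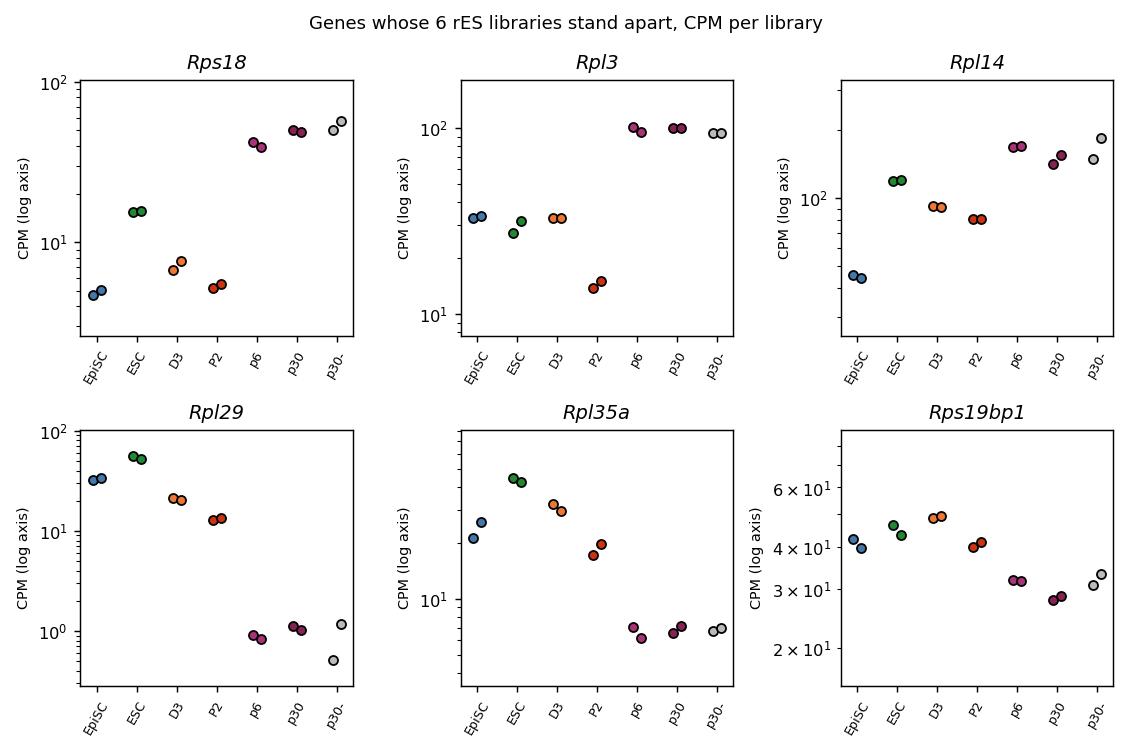
Level of 6 members in every library, in TMM-scaled CPM on a log axis, for genes whose 6 rES libraries did not overlap the other 8, with group labels as for the paralogs and 1 point per library. Rps18 and Rpl3 are at least 39.2 and 94.6 CPM in rES, and Rpl29 is at most 1.16 CPM in rES and at least 12.8 CPM elsewhere.

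The 4 X-linked members, Rpl10, Rpl36a, Rpl39 and Rps4x, were all higher in rES passage 30 than in EpiSC, by 0.33, 0.65, 1.21 and 0.58 on the log2 scale. Against ESC, 3 were higher and Rpl39 did not pass. X-linked genes in general leaned the same way: of 608 tested, 53.6% were higher and 26.6% lower against EpiSC, and 56.6% and 20.6% against ESC. The call of Rpl10 against EpiSC was lost without EpiSC replicate 1 (0.22), and that of Rpl36a without EpiSC replicate 2 (0.47).

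No member called on withdrawal of MM401 from the passage 30 line moved by a factor of 2. Of 85, 21 were higher and 5 lower without MM401, where 10.4% of all genes were higher and 9.30% lower, and the median was 0.07 against 0.00. Small subunit genes were 9 higher and 0 lower of 31. Rpl22, which binds RNA outside the ribosome too, had 741.8 and 761.1 CPM without MM401 and 557.8 and 604.4 with it (0.37 ± 0.04, edgeR adjusted p = 2.87e-09). Rplp0 had 672.3 and 712.1 against 590.4 and 564.9 (0.26 ± 0.03, edgeR adjusted p = 4.78e-07). Rpl6 was lower, with 82.9 and 86.5 against 98.8 and 98.0 (-0.22 ± 0.05, edgeR adjusted p = 0.000631). The groups did not overlap for these 3 genes. With RLE size factors the split was 19 higher and 8 lower, and with the length and GC offset 17 and 10. Without rES passage 30 replicate 2 the higher members were 13, and without replicate 1 of the group lacking MM401 the split was 24 higher and 2 lower. That passage 30 replicate had 2.0% of its counts on the ribosomal RNA precursor Rn45s, against 0.548% in the other.

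EpiSC against all LIF libraries was also looked at after the values were seen. For 16 members the 12 LIF libraries all lay above both EpiSC libraries and for 3 all below, where 18.8% and 18.2% of all genes did so, so the members were near the background above and under it below. Beside the 4 paralogs and Rpl39, the higher ones included Rpl4, with 1805.7 to 2596.7 CPM against 1538.3 and 1558.6, Rpl12, Rps12 and Rpsa, several of them named after their values were seen. The lower ones were Rpl27, Rpl15 and Rpl34, all of the large subunit. Over the 85 members, the highest group mean fell in ESC for 40 and in MM401 day 3 for 17, and the lowest in MM401 passage 2 for 42 and in EpiSC for 22. Over all genes those shares were 16.8% and 12.7% for the highest, and 13.9% and 24.3% for the lowest.

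Levels per kilobase among members ranged widely although their products are used in near-equal numbers. In EpiSC, Rpl8 had 1665.3 CPM per kb and Rps3 1382.3, whereas 18 members were under 10 CPM in every library, Rpl5, Rpl23a and Rps29 among them, the last 2 named after their values were seen. The share of distinct 50-base stretches had a median of 64.2% over the 87 members and ran from 4.9% to 100%. The 58 members with at least 50% had a median of 76 CPM per kb in EpiSC and 118.1 in ESC, and the 29 below had 22.4 and 28.6, a dividing value chosen after the data were seen. Across the 87 members, Spearman's rho between level per kb and distinct share was 0.41 in EpiSC and 0.41 to 0.48 in the other groups. The points share libraries and gene structure, so this is a description. More members were higher than lower in both classes for ESC, and more lower than higher in both at passage 2: in ESC against EpiSC, 43 of 57 tested members with at least 50% and 17 of 28 below it were higher, and at passage 2 against day 3, 46 of 57 and 25 of 28 were lower.

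**Figure D5:**
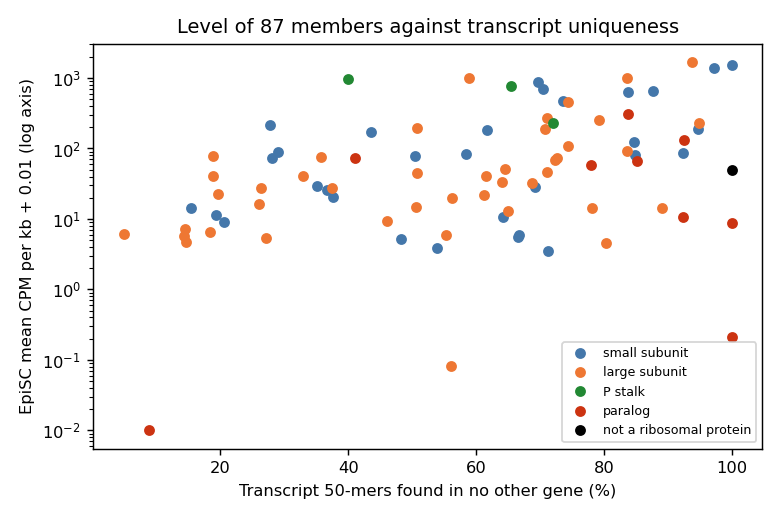
Mean EpiSC level of the 87 members, in CPM per kilobase plus 0.01 on a log axis, against the percent of 50-base stretches of the transcript found in no other annotated gene, 1 point per gene coloured by role. Members with at least 50% have a median of 76 and those below it 22.4.

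Other genes of ribosome production were mostly lower at MM401 passage 2 than at day 3. Over all genes tested, 33.3% were lower and 37.5% higher there, and 57.7% were lower among genes of at least 100 CPM. All 22 fibroblast markers were higher at passage 2, and their part in these falls was not tested. In ESC against EpiSC 37.0% of all genes were higher and 37.5% lower, and at day 3 against EpiSC 38.7% and 37.9%. Of 41 genes for ribosome assembly in the nucleolus, 26 were higher and 7 lower in ESC than in EpiSC, 28 higher and 7 lower at day 3, and all 41 were lower at passage 2 than at day 3, with a median of -0.46. Ncl, a major nucleolar protein, had a mean of 1668.1 CPM at day 3 and 1020.5 at passage 2 (-0.71 ± 0.03, edgeR adjusted p = 7.84e-22), and Npm1 636.4 and 408.3. All 13 tested subunits and factors of RNA polymerase I, which transcribes the ribosomal RNA precursor, were lower at passage 2 as well, with a median of -0.46, and 8 were higher and 5 lower in ESC than in EpiSC. Of 19 translation factors and other genes with 5' oligopyrimidine messages, 13 were higher and 3 lower in ESC, and 0 higher and 17 lower at passage 2 against day 3. Eef2, the elongation factor, had a mean of 6970.0 CPM in ESC and 4157.4 in EpiSC (0.75 ± 0.03, edgeR adjusted p = 3.08e-23).

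Mitochondrial ribosomal proteins, encoded in the nucleus for the ribosome of the organelle, were more often lower than higher in ESC and more often higher at MM401 day 3. Of 77 tested, 20 were higher and 39 lower in ESC than in EpiSC, with a median of -0.14, and 17 were higher and 45 lower in rES passage 30 against EpiSC. At day 3 against EpiSC, 40 were higher and 19 lower, with a median of 0.14. From day 3 to passage 2 most went down, with 63 lower and 2 higher and a median of -0.29. On withdrawal of MM401, 30 were higher and 0 lower, with a median of 0.14. The difference between the 2 sets was not tested. Over all genes tested, 37.0% were higher and 37.5% lower in ESC than in EpiSC, and 38.0% and 38.3% in rES passage 30 against EpiSC. These shares were 38.7% and 37.9% at day 3 against EpiSC and 37.5% and 33.3% at passage 2 against day 3. On withdrawal they were 10.4% and 9.30%. The same shares apply to the lists that follow. Of 15 growth regulators, 10 were higher and 4 lower in ESC than in EpiSC. Those higher included Myc, an activator of ribosomal genes, with means of 85.2 and 33.9 CPM (1.33 ± 0.06, edgeR adjusted p = 4.18e-22), and Eif4ebp1, an mTOR target that represses translation, with 462.1 and 206.9 (1.16 ± 0.04, edgeR adjusted p = 7.3e-26). Of 16 p53 target genes, 11 were higher and 3 lower at passage 2 than at day 3. Those higher included Ccng1 at 567.4 against 376.2 CPM and Cdkn1a, the cell cycle inhibitor, at 498.4 against 363.7. All 22 fibroblast markers were higher at passage 2 too, and their part was not tested. Of 7 hosts of small nucleolar RNAs, 2 were higher and 4 lower in ESC, and Gas5 had 135.2 against 282.3 CPM in EpiSC (-1.06 ± 0.04, edgeR adjusted p = 3.99e-24).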

How the data were processed

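RNA-seq of 14 libraries was analysed from 1 table of raw counts per gene. The deposited counts were made by the authors with TopHat2 on mm9 and Subread, per the submitters' processing notes, which also name DESeq. The use of strand and the treatment of reads with several matches were not given in the sources used here. 2 columns that match no sample were not used, and 27 gene names read as dates are no members. Counts were fitted with edgeR 4.0.16 (R 4.3.3; robust quasi-likelihood F test, TMM, default low-count filter) on all libraries with 1 mean per group, and p-values were adjusted by Benjamini-Hochberg over 16247 genes; calls are adjusted p under 0.05. Standard errors are the log2 fold change over the root of F. CPM are TMM-scaled counts, and levels per kilobase use transcript lengths from GENCODE M21. Distinct 50-base stretches were counted against GENCODE M21 (GRCm38), another build than the files'. The steps were tested on simulated data. Alternatives were DESeq2 1.42.0, other scalings, filters, sample sets, thinning, a length and GC offset (mgcv 1.9.3) and leaving out each library; fitting without the deep MM401 libraries and paralog ratios over distinct stretches were added after the data were seen. Named members were a panel by role, plus the 4 largest called rises and falls per comparison with a group mean of 10 CPM or more in 1 of the groups compared. The members and lists were chosen with earlier results of these data known. No replicate pair agreed within counting noise (chi-square per degree of freedom 3.74 to 25.8 over members and 1.28 to 17.6 over all genes). This value was larger over members than over all genes in every group but rES passage 30. At passage 30 without MM401 it was 23.5 over members and 3.34 over all genes. The p-values rest on the spread between replicate libraries, estimated over all 7 groups. That spread was drawn toward the trend over all genes (median prior degrees of freedom 31.5), so it is not that of the compared libraries alone. The depth of each library bounds precision, most for members with few counts. A few single members are not reported here.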

Additional observations from a re-analysis of the deposited data

How the results depend on the processing

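Most values moved little between settings: of the member counts and group shares, 215 values were within the spread or within 1.5 times, and 17 were not. Of the values for single named members, 4142 stayed on the same side of the threshold, 124 lost a call and 76 gained one. A further 17 reversed direction while called in at least 1 of the settings compared. The 4142 include members called in neither setting, for which a change of direction was not counted. Of the members' medians, 102 stayed within the spread between libraries, 5 moved beyond it and 2 reversed. Those that moved were, with total counts, 0.33 for ESC, 0.05 for day 3, -0.32 for passage 2 and 0.07 for rES passage 30 against EpiSC, and -0.29 for passage 2 with the length and GC offset. Scaled to total counts, which moved the median of all genes to -0.154 (ESC), -0.172 (MM401 day 3) and -0.172 (rES passage 30) against EpiSC, members lower at day 3 were 23, members higher at passage 2 against EpiSC 13, and passage 30 against EpiSC had 26 higher and 24 lower. At passage 2 against day 3, the members higher were 1 with DESeq2, with the length and GC offset and with thinned counts, and 1 to 2 on leaving out 1 library. On MM401 withdrawal the members lower were 8 with RLE size factors (19 higher), 9 without the deep libraries and 10 with the offset (17 higher), and 2 to 7 on leaving out 1 library, with 13 to 24 higher. The mean share of counts was 2.14% in ESC and 1.67% at day 3 without Rn45s, and 2.12% in ESC without low members. Directions that reversed with the offset were Rpl22l1 (0.07), Rps19bp1 (-0.01) and Rps27l (0.03) in ESC against EpiSC, Rplp0 (-0.01) at day 3, Rpl22 (-0.17) at passage 2, and Rpl13a (-0.10), Rplp2 (-0.07) and the members' median (-0.03) at rES passage 6. With total counts they were Rps19bp1 (-0.02) in ESC, Rpl18 (-0.07), Rpl6 (-0.13) and Rplp0 (-0.08) at day 3, Rpl22 (-0.14) and Rps27l (-0.02) at passage 2, Rpl13a (-0.03) and the median (-0.05) at rES passage 6, and Rpl18 (-0.14), Rpl6 (-0.13) and Rpl7 (-0.05) at passage 30. The cause was not tested. Replicate numbers share only a name: deviations correlated at -0.031 to 0.04 between same-numbered libraries. With the replicate as a block, 58 members were higher in ESC than in EpiSC in place of 60, and no count moved by 1.5 times. Members under 10 CPM are limited by their counts.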
